A study of Mus musculus with 4 samples.

Results

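Accessible chromatin was examined at 8 genes of cholesterol synthesis and its regulation by SREBP transcription factors (Srebf1, Srebf2, Insig1, Hmgcs1, Fdft1, Sqle, Scd1 and Scd2) in mouse mesenchymal stem cells cultured in hypoxia or normoxia. A peak belonged to a gene when it overlapped the stretch from 5 kb upstream of the gene to 5 kb past its end in GENCODE M21 (mm10), which gave 40 of the 128055 peaks. Of these, 9 reached to 1 kb or less from where a coding transcript of the gene itself begins and are called promoter peaks (9 of 17661 in the whole table). The remaining 31 are called other peaks. In the whole table a promoter peak is one near a coding start site of any gene, which leaves 110394 other peaks. By that rule 1 of the 31, at a start site of Shisa8 past the end of Srebf2, counts among the 17661. Shares over all peaks use the rule of the whole table. Srebf1 had 2 promoter peaks and the other 7 genes had 1 each. Values are the reads of a peak per 10000000 reads of the library, not divided by peak width, and they are called signal here.

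Cholesterol synthesis in mammalian cells is governed by the sterol regulatory element-binding proteins (SREBPs), transcription factors held in the endoplasmic reticulum by INSIG proteins while sterols are plentiful and released by proteolysis when sterols run low. Once in the nucleus they act on promoters of the mevalonate and cholesterol pathway and of fatty acid synthesis and desaturation, including their own. Among the 8 genes examined here, Srebf1 and Srebf2 encode the factors, Insig1 encodes a retention protein, Hmgcs1, Fdft1 and Sqle encode enzymes of cholesterol synthesis, and Scd1 and Scd2 encode desaturases that make monounsaturated fatty acids.

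The accessibility of these loci was measured by ATAC-seq, in which a transposase cuts and tags accessible DNA. The cells were mesenchymal stem cells (MSCs) from the hind limbs of C57BL6/N mice aged 3 to 5 months. They were sorted as CD45-, Ter-119-, Sca-1+ and CD140a+ and were either kept in hypoxia (2% O2, n = 2 libraries) or cultured in normoxia (21% O2, n = 2 libraries), in both cases in α-MEM with 5% CO2. The study counts the 2 libraries of a condition as biologically independent experiments. The labels name no genetic change or drug, and each library is a cultured population and not the tissue.

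All 6 MSC marker genes examined (Pdgfra, Ly6a, Thy1, Eng, Nt5e, Pdgfrb) had a promoter peak, with a summed signal of 896 to 909 in hypoxia and 521 to 600 in normoxia. Of the blood genes examined Spi1 had one, at a summed 10.2 to 14.9 and 7.87 to 13.0, and Ptprc, Itgam and Cd3e had none. The summed signal was 39.6 to 47.3 and 29.6 to 42.7 for 3 endothelial genes (none at Cdh5), 109 to 138 and 78.3 to 98.4 for 3 adipocyte genes, and 21.8 to 21.9 and 13.1 to 17.0 for 3 hepatocyte genes (none at Alb and Cyp7a1), and their part in the results was not tested. Library totals were 26680936 to 29965523 reads, but the share that fell in nuclear peaks was 49.2% and 53.2% in hypoxia against 31.0% and 35.2% in normoxia. With 2 libraries on each side, this difference in the share of reads in peaks and the oxygen level cannot be told apart. For that reason each result is given on the deposited scale, where the median log2 fold change of all peaks was -0.44, and after division by relative log expression (RLE) factors, where it was -0.0040. Giving each library equal totals over peaks moved this median to 0.26.

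To ask whether oxygen level altered accessibility at the promoters of this pathway, normoxia was compared with hypoxia over all peaks with limma. All 9 promoter peaks had less signal in normoxia after RLE scaling, by a median log2 fold change of -0.32, and 3 of them passed a false discovery rate (FDR) under 0.01: Insig1, Hmgcs1 and Srebf2. The direction held on the deposited scale for all 9, but turned for Fdft1 and both Srebf1 peaks with equal totals over peaks, and for Fdft1, Sqle and the first Srebf1 peak after cyclic loess. As a share of the reads in nuclear peaks only, the normoxia mean of Fdft1 was 92.7% of hypoxia, with no overlap between the groups. For both Srebf1 peaks together it was 96.4%, and the groups overlapped. The 3 calls are 33.3% of the 9 promoter peaks. Over all promoter peaks 16.7% were called lower in normoxia and 0.442% higher, with a median log2 fold change of -0.27. A negative log2 fold change was found in 13833 of all 17661 promoter peaks after RLE scaling and in 16741 on the deposited scale.

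**Figure D1:**
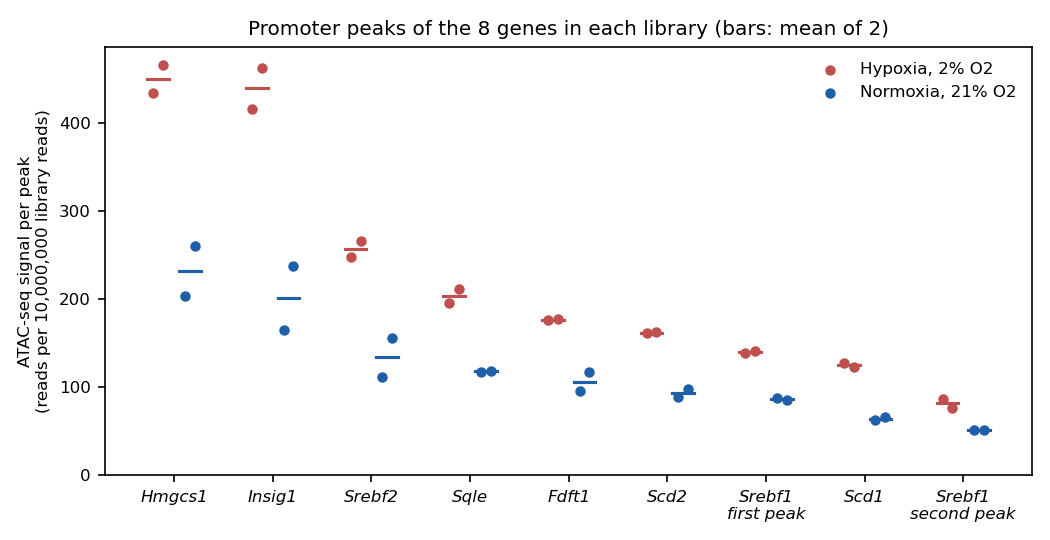
Deposited ATAC-seq signal (y axis, reads per 10000000 library reads) of the 9 promoter peaks of the 8 genes (x axis, ordered by hypoxia mean), with a point for each of the 2 hypoxia libraries (red) and 2 normoxia libraries (blue) and a short bar at each mean. Both normoxia points lie below both hypoxia points in all 9 peaks, which was also the case in 86.1% of all promoter peaks.

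Srebf2 encodes SREBP-2, the family member best known for activating cholesterol synthesis. Its promoter peak, chr15:82143901-82148900 (mm10), spans 5 kb around the first exon. The signal was 248 and 266 in hypoxia against 111 and 156 in normoxia. Both normoxia libraries were below both hypoxia libraries, and their mean was 52.1% of the hypoxia mean. After RLE scaling the peak fell by 0.48 on the log2 scale (SE 0.12, limma FDR 0.00555).

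Srebf1 encodes SREBP-1 in isoforms that start from separate first exons and are best known for activating fatty acid synthesis. The peak at the 5′ end of the gene, chr11:60219401-60223700, had 138 and 141 in hypoxia against 87.3 and 85.1 in normoxia. The second one, chr11:60208201-60212300, is centred 12.3 kb into the gene at an internal start site and had 86.3 and 76.2 in hypoxia against 51.0 and 51.4 in normoxia. On the deposited scale the groups did not overlap at either peak. After RLE scaling the log2 fold changes were -0.21 (SE 0.13, limma FDR 0.262) and -0.18 (SE 0.15, limma FDR 0.440), and the groups overlapped at the second peak. These were the smallest differences among the 9 promoter peaks.

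Insig1 encodes a protein that holds the SREBP-SCAP complex in the endoplasmic reticulum and is itself a known SREBP target. Its promoter peak, chr5:28069701-28073300, also covers the start of Gm26608, a long non-coding RNA gene on the opposite side, and ATAC-seq does not assign the signal to a strand. The signal was 416 and 463 in hypoxia against 165 and 237 in normoxia. Its normoxia mean was 45.7% of the hypoxia mean, the lowest of the 9 promoter peaks. After RLE scaling the peak fell by 0.67 on the log2 scale (SE 0.11, limma FDR 0.000112), and 9.08% of all promoter peaks had a fold change below it.

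Hmgcs1 encodes the cytosolic synthase that makes HMG-CoA, an early intermediate of the mevalonate pathway. Its promoter peak, chr13:119688501-119692000, had the highest signal of the 9, with 434 and 465 in hypoxia against 203 and 261 in normoxia. The groups did not overlap. After RLE scaling the peak fell by 0.49 on the log2 scale (SE 0.099, limma FDR 0.00114).

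Fdft1 encodes squalene synthase, the first enzyme committed to sterols, and Sqle encodes squalene epoxidase, which acts next. The Fdft1 promoter peak, chr14:63176801-63178900, had 176 and 177 in hypoxia against 95.9 and 116 in normoxia. It is centred 1.73 kb into the gene, over the later of its annotated coding start sites. The Sqle promoter peak, chr15:59314001-59317000, had 195 and 211 in hypoxia against 117 and 118 in normoxia. The groups were apart at both genes, with normoxia means at 60.2% and 58.1% of the hypoxia means. After RLE scaling neither difference passed the test, with a log2 fold change of -0.26 for Fdft1 (SE 0.12, limma FDR 0.140) and -0.30 for Sqle (SE 0.11, limma FDR 0.0688).

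Scd1 and Scd2 encode stearoyl-CoA desaturases and lie on the same chromosome. The Scd1 promoter peak, chr19:44406801-44409000, had 127 and 122 in hypoxia against 62.2 and 66.1 in normoxia. The Scd2 promoter peak, chr19:44292701-44297100, had 161 and 162 in hypoxia against 88.1 and 97.4 in normoxia. The groups were apart at both genes. After RLE scaling the log2 fold change of Scd1 was -0.48 (SE 0.13, limma FDR 0.0134), close to that of Srebf2 and just outside the threshold, and that of Scd2 was -0.32 (SE 0.12, limma FDR 0.0669).

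The stretches of DNA just before the start sites of the 3 called promoters and 1 of the 3 Srebf1 start sites are shown. Regions just before start sites are where SREBPs are known to bind at target genes, but binding in these stretches was not measured here. SREBPs recognise sterol regulatory elements, usually near sites for NF-Y, which binds CCAAT, and for Sp1, which binds GGGCGG. The sequences are from RefSeq (GRCm38.p6, the same build as mm10), read 5′ to 3′ on the strand of the gene, and each lies inside its promoter peak and stops before the first annotated exon base. This left 162 bases for Srebf2 and 201 for Insig1, fewer than the 250 bases of the windows over which shares are given. They are chr15:82147019-82147180 (+) for Srebf2, chr13:119690101-119690350 (+) for Hmgcs1, chr5:28071162-28071362 (+) for Insig1 and chr11:60220628-60220877 (-) for Srebf1. Capitals mark matches to TCACCCCA (the core of a sterol regulatory element), TCACNCCAC (the same with an open base), CACGTG (an E-box) and CCAAT, each searched on both strands. Only these exact letters were searched, so a stretch without a match may still hold an element with other letters. The letters were chosen after the sequences were read, so the shares over all windows given below are no test of the matches.
Srebf2: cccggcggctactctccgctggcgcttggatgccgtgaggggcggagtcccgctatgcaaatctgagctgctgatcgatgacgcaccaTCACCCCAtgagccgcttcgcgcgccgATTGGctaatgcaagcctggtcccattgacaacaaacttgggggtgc
Hmgcs1: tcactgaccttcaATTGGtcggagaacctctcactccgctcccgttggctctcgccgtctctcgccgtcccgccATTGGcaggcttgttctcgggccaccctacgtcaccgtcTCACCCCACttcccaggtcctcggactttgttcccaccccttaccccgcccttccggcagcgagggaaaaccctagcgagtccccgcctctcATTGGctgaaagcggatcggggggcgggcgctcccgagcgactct
Insig1: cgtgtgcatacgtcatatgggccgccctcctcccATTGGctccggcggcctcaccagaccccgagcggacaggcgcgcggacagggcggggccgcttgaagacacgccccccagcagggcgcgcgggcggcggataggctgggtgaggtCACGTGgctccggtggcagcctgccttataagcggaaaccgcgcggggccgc
Srebf1: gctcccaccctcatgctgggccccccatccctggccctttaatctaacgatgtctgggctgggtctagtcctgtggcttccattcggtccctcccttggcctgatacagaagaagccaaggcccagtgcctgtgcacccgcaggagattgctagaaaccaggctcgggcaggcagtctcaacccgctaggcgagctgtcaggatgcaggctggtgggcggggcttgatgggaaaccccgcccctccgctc
TCACCCCA was present in Srebf2 (bases 89 to 96, counted from 1 at the left end) and in Hmgcs1 (bases 114 to 121), where TCACNCCAC overlaps it. In all 32851 RefSeq windows of the 250 bases before a start site, TCACCCCA was found in 1.34% and TCACNCCAC in 1.05%. CCAAT occurred 3 times in Hmgcs1 and once each in Srebf2 and Insig1, and in 33.8% of all windows. CACGTG was found in Insig1 only among the 4 shown (6.02% of all windows). GGGCGG, which is not capitalised, occurred 3 times in Insig1, 2 times each in Hmgcs1 and Srebf1, and once in Srebf2 (32.7% of all windows), and the Srebf1 stretch held none of the other motifs. Srebf1 has 3 RefSeq start sites with windows inside its promoter peaks, and the other 2 stretches (chr11:60222582-60222831 and chr11:60210472-60210721, both on the minus strand, not printed) each held 1 CCAAT and none of TCACCCCA, TCACNCCAC and CACGTG. RefSeq windows were matched for 4 of the 8 genes, and the Hmgcs1 and Srebf2 matches are letters in a window and not evidence of binding in these cells.

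Signal can be compared between genes only per length. Per kb of peak, the mean over both conditions was highest at Hmgcs1 (97.4) and Insig1 (88.9), followed by Fdft1 (67.3), Sqle (53.5), Scd1 (43.0), Srebf2 (39.1), Scd2 (28.9) and the 5′ peak of Srebf1 (26.3), and lowest at the second peak of Srebf1 (16.2). Hmgcs1 exceeded 99.0% and Insig1 98.5% of all promoter peaks by this measure, and the second Srebf1 peak exceeded 32.9%. In this order the library values of Hmgcs1 and Insig1 overlapped in both conditions. Those of Insig1 and Fdft1, of Scd1 and Srebf2, and of Scd2 and the 5′ peak of Srebf1 were apart in hypoxia and overlapped in normoxia, and the remaining neighbours were apart in both.

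Over all promoter peaks, the median log2 fold change went from -0.0081 in decile 3 of signal to -0.41 in decile 10, while it was -0.58 in the weakest decile and 0.13 in decile 2. The 9 peaks were therefore set beside promoter peaks of like signal. In the strongest decile of all promoter peaks 54.2% were called lower in normoxia, with a median log2 fold change of -0.41, and both peaks of that decile here, Hmgcs1 and Insig1, were called. In the next decile 38.3% were called lower (median -0.38), and of Fdft1, Sqle and Srebf2 only Srebf2 was called. The other 4 peaks (Scd1, Scd2 and both of Srebf1) lay in deciles in which 10.4% to 27.3% were called, and none of them was. Insig1 and Scd1 lay below the interquartile range of their deciles, and Fdft1 and the 5′ peak of Srebf1 were close to its upper edge.

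**Figure D2:**
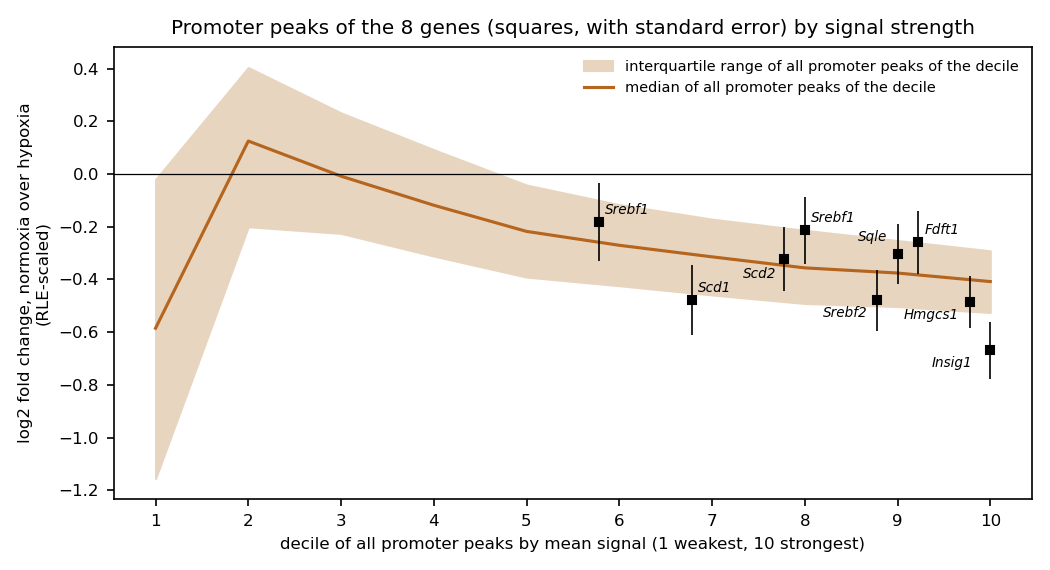
Log2 fold change (y axis, normoxia over hypoxia, RLE-scaled) of the 9 promoter peaks of the 8 genes (black squares, bars are the standard error) against the decile of all promoter peaks in which their mean signal falls (x axis), with the median (line) and interquartile range (band) of all promoter peaks in each decile. The median goes from -0.22 in decile 5 to -0.41 in the strongest, and Insig1 and Scd1 are the 2 squares below the band.

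The calls depended on the scaling. On the deposited scale all 9 promoter peaks were called lower (median log2 fold change -0.80), where 60.6% of all promoter peaks were. With equal totals over peaks only Insig1 was called (2.29% of all promoter peaks). After cyclic loess none was, with a median of -0.03 (2.05% of all promoter peaks called lower), and 1 of the 9 was lower at an unadjusted p under 0.05 (18.0% of all promoter peaks). Both normoxia libraries were below both hypoxia libraries in 8 of the 9 peaks after RLE scaling, compared with 60.3% of all promoter peaks. Leaving out either hypoxia library ended all 3 calls, and in these fits 0 peaks of the whole table were called, with 4 and 5 of the 9 lower at an unadjusted p under 0.05 (26.7% and 32.2% of all promoter peaks). Limma without its trend and robust options also called 0 peaks of the table, with 3 of the 9 lower at an unadjusted p under 0.05 (21.7% of all promoter peaks). EdgeR on recovered reads called Scd1 beside Insig1, Hmgcs1 and Srebf2, where it called 20% of all promoter peaks lower with RLE and 17.9% with TMM factors. Leaving out normoxia replicate 1 ended the call of Srebf2 alone, and so did removing the trend with GC content or a pseudocount of 0.1.

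As a share of the reads in nuclear peaks, which takes out the difference in how many reads fell in peaks, the promoters were still lower as a sum. The 9 promoter peaks held 403 and 391 reads per 1000000 nuclear peak reads in hypoxia against 316 and 338 in normoxia, a normoxia mean at 82.3% of the hypoxia mean. Insig1 alone held 84.5 and 87.0 in hypoxia against 53.1 and 67.3 in normoxia, a mean of 70.2%. Hmgcs1 was at 79.3%, Scd1 at 79.4%, Srebf2 at 80.0%, Scd2 at 88.6%, Sqle at 90.1% and Fdft1 at 92.7%, each with no overlap between the groups. Over the whole table, promoter peaks held 39.2% and 37.9% of the signal in nuclear peaks in hypoxia against 33.8% and 34.8% in normoxia. How many of all promoter peaks had no overlap by this measure was not counted. The 2 Srebf1 peaks together were at 96.4%, with 45.7 and 40.8 in hypoxia against 44.5 and 38.8 in normoxia, and their groups overlapped. In bulk ATAC-seq, fewer cells with an open promoter and less opening in each cell cannot be told apart.

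The 31 other peaks lay on both sides of 0. None was called at an FDR under 0.01 by limma or by edgeR, and at an unadjusted p under 0.05 there were 4 lower and 5 higher (12.5% and 13.9% of all other peaks). Their median log2 fold change was -0.05 after RLE scaling, with 16 lower and 15 higher, from -1.37 to 0.93. Over all other peaks 2.64% were called lower and 1.98% higher. On the deposited scale 26 of the 31 had a lower mean in normoxia and 6 were called lower (18.1% of all other peaks). Both normoxia libraries were below both hypoxia libraries in 19 of the 31 on that scale (55.3% of all other peaks) and in 9 after RLE scaling (24.6%). These peaks were weaker, with a median signal of 13.3 compared with 141 in the promoter peaks, and reads of single peaks ranged from 0 to 453.

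**Figure D3:**
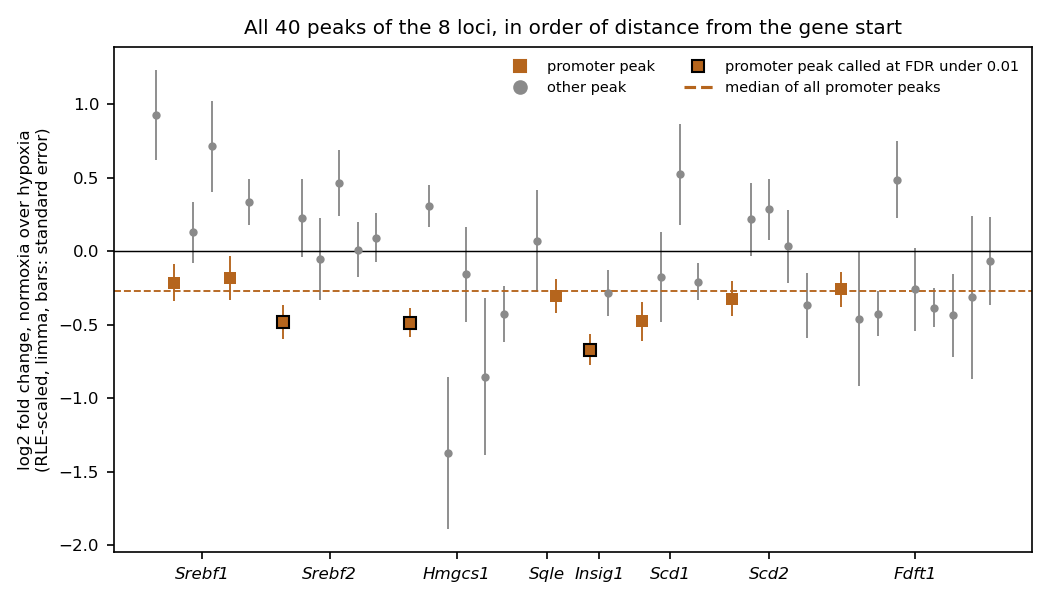
Log2 fold change (y axis, normoxia over hypoxia, RLE-scaled, bars are the standard error from limma) of all 40 peaks of the 8 genes, ordered along each gene, with promoter peaks as brown squares and other peaks as grey circles and a black edge on the 3 called peaks. The 9 promoter peaks lie between -0.67 and -0.18 around the median of all promoter peaks (dashed, -0.27), and the other peaks lie on both sides of 0. Under other scalings some of these directions turn, as given in the text for Fdft1, Sqle and Srebf1.

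By position, 10 of the 11 other peaks past the ends of the genes had a negative log2 fold change (median -0.31), against 2 of 9 in exons (median 0.22), 4 of 9 in introns (median 0.13) and 0 of 2 upstream. The peaks past the ends of Hmgcs1 and Fdft1 abut each other, so the 11 are not separate observations. No share over all peaks past gene ends was computed, and the difference between positions was not tested. With equal totals over peaks 6 of the 11 past the ends were negative, and on the deposited scale 8 of 9 in exons and 6 of 9 in introns were. At Srebf1 all 4 other peaks had a positive fold change after RLE scaling and 2 of the 4 on the deposited scale. The largest was upstream of the gene, chr11:60224101-60225300, with a signal of 8.85 and 5.78 in hypoxia against 10.1 and 11.01 in normoxia. On the deposited scale it was the only one of the 31 where both normoxia libraries exceeded both hypoxia libraries. That was the case in 8583 of all 110394 other peaks. Its log2 fold change after RLE scaling was 0.93 (SE 0.31, limma FDR 0.0377). The strongest other peak of Srebf1 was a stretch of 8.1 kb over the 3′ end, which is shared with Rai1, Mir6921 and Mir6922, with 80.3 and 61.2 in hypoxia against 64.5 and 62.7 in normoxia (log2 fold change 0.33 after RLE scaling, SE 0.16, limma FDR 0.147).

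At the strongest other peak of each gene, the groups were apart on the deposited scale for Srebf2, Insig1, Scd1, Scd2 and Fdft1 and overlapped for Srebf1, Hmgcs1 and Sqle. After RLE scaling both normoxia libraries were above both hypoxia libraries for Srebf1, Hmgcs1 and Scd2 and below them for Insig1, Scd1 and Fdft1. The groups overlapped for Srebf2 and Sqle. Of all 110394 other peaks, 33260 were above and 27192 below in this way, and 61041 were below on the deposited scale. The log2 fold change was negative on the deposited scale and positive after RLE scaling for Srebf1, Srebf2, Hmgcs1, Scd2 and Sqle, and after cyclic loess that of Sqle was negative and that of Scd1 positive. At Srebf2 this peak lay past the end of the gene at a start site of Shisa8, with 67.9 and 52.0 in hypoxia against 40.9 and 50.7 in normoxia (log2 fold change 0.09, SE 0.17, limma FDR 0.760). At Hmgcs1 it covered the end of the gene and part of Nim1k, with 72.5 and 82.6 in hypoxia against 60.7 and 78.4 in normoxia, and its log2 fold change was 0.31 (SE 0.14, limma FDR 0.137), and 0.51 after cyclic loess (limma FDR 0.0158). On the deposited scale the groups overlapped there while they were apart at the promoter. The strongest at Insig1 began just past the gene, with 87.4 and 69.7 in hypoxia against 42.7 and 49.4 in normoxia (log2 fold change -0.28, SE 0.16, limma FDR 0.231). Scd1 had a strong peak past its end with 143 and 154 in hypoxia against 98.6 and 86.4 in normoxia (log2 fold change -0.21, SE 0.13, limma FDR 0.291). Its signal was higher than that of the Scd1 promoter peak in each library, but it is wider (3.5 kb against 2.2 kb). Per kb its mean was lower than that of the promoter peak, at 42.5 against 56.8 in hypoxia and 26.4 against 29.2 in normoxia. At Scd2 it was a peak within the gene that also holds Mir5114, with 29.0 and 24.1 in hypoxia against 23.6 and 23.0 in normoxia (log2 fold change 0.28, SE 0.21, limma FDR 0.376). Fdft1 had a peak over an exon near its 3′ end with 123 and 117 in hypoxia against 61.8 and 69.7 in normoxia, and its log2 fold change was -0.38 (SE 0.13, limma FDR 0.0462). The single other peak of Sqle, upstream of the gene and within Zfp572, had 5.66 and 8.50 in hypoxia against 6.37 and 4.34 in normoxia (log2 fold change 0.07, SE 0.35, limma FDR 0.922). The peak caller had assigned 3 of the 31 to hypoxia only, 2 near Hmgcs1 and 1 near Fdft1, each 200 bp wide and at most 4.60 in any library.

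**Figure D4:**
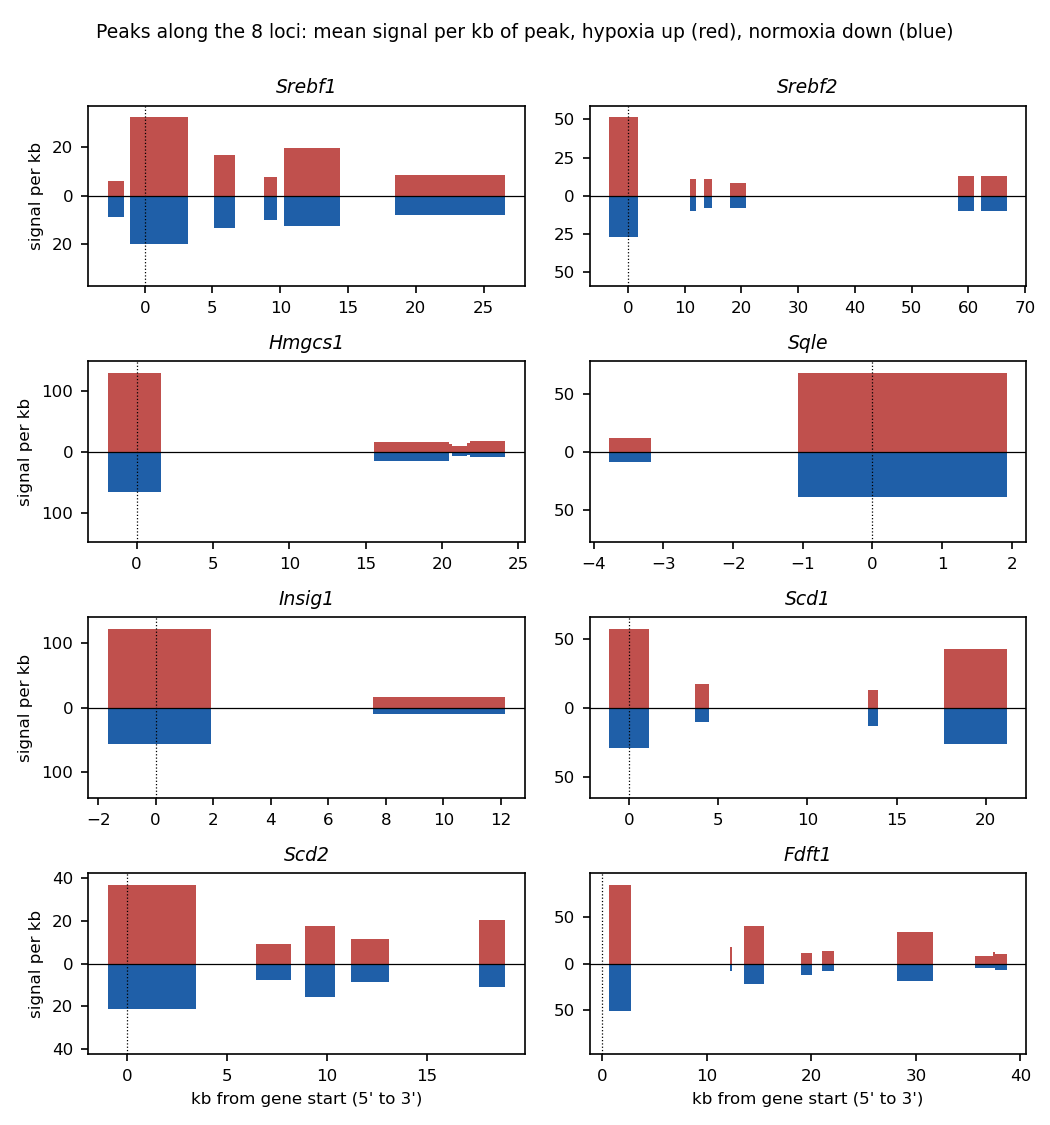
Mean signal per kb of peak (y axis) along the 8 loci by distance from the gene start in the direction of transcription (x axis, kb), with the hypoxia mean drawn upward in red and the normoxia mean downward in blue. The tallest block in each panel is a promoter peak, and Scd1 has a second tall block past the end of the gene.

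To compare promoters with their surroundings within a library, the summed promoter signal of the 8 genes was divided by the summed signal of their other peaks. Scaling by a single factor per library does not change this ratio, but a scaling that varies with signal can. After cyclic loess, which is of that kind, the median log2 fold change was -0.03 in the promoter peaks and -0.07 in the other peaks. Promoter peaks made up 66.0% and 68.1% of the summed signal in hypoxia against 59.1% and 62.6% in normoxia. Over all nuclear peaks of the table promoter peaks made up 39.2% and 37.9% in hypoxia against 33.8% and 34.8% in normoxia. The log2 ratio of promoter to other signal was 0.96 and 1.096 in hypoxia against 0.53 and 0.75 in normoxia for the 8 genes. The difference was -0.39 with a pooled SD of 0.13 (n = 2 each), compared with -0.27 over the table. The exact permutation test gave p = 0.333 (two-sided), the smallest value that 2 against 2 libraries can give. The difference was negative at 7 of the 8 genes, most at Srebf2 (-0.61) and Srebf1 (-0.59), and was 0.07 at Fdft1, where the summed normoxia signal was 56.9% of hypoxia in the other peaks and 60.2% in the promoter peak.

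The wider pathway was described with 5 lists of genes, in all of which every gene had a promoter peak. Of the 77 promoter peaks of the lists 13 were called lower in normoxia and 0 higher, which is 16.9% and close to the 16.7% of all promoter peaks. Without the 8 genes it was 10 of 68, or 14.7%. At an unadjusted p under 0.05 there were 50 lower and 1 higher among the 77, against 44.1% lower and 3.88% higher of all promoter peaks. The median log2 fold change was -0.37, compared with -0.27 over all promoter peaks. On the deposited scale 62 of the 77 were called lower (60.6% of all promoter peaks). After cyclic loess 0 were lower and 1 was higher. In that fit 2.05% of all promoter peaks were called lower, and 584 of the 17661 were called in either direction. Leaving out either hypoxia library gave 0 calls, and leaving out normoxia replicate 2 gave 26 lower (24.6% of all promoter peaks in that fit).

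In the list of 22 genes labelled cholesterol synthesis enzymes, 6 of 35 promoter peaks were called lower and 0 higher (median log2 fold change -0.42, 26 lower at an unadjusted p under 0.05). Beside Hmgcs1 these were Idi1, which isomerises isopentenyl diphosphate (-0.54, limma FDR 0.00134), Ggps1, which makes geranylgeranyl diphosphate (-0.49, limma FDR 0.000736), Cyp51 (-0.50, limma FDR 0.00530) and Msmo1 (-0.49, limma FDR 0.00295), which both act in removing methyl groups from lanosterol and its products, and Fdps. The Fdps call rests on a peak of 400 bp that the caller assigned to hypoxia only, with 9.55 and 6.12 in hypoxia against 1.12 and 1.001 in normoxia. The main Fdps promoter peak had 99.4 and 88.7 in hypoxia against 51.7 and 56.4 in normoxia and was not called (log2 fold change -0.32, limma FDR 0.134).

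Of the 11 promoter peaks of the SREBP processing list 3 were called lower and 0 higher. Beside Insig1 and Srebf2 the third was Insig2, the second retention protein, with 223 and 281.5 in hypoxia against 113 and 133 in normoxia (log2 fold change -0.55, limma FDR 0.00142). Neither peak of Scap, which encodes the escort protein, was called, with log2 fold changes of -0.34 and 0.57 (limma FDR 0.144 and 0.125). In the list of sterol uptake and trafficking 1 of 7 was called lower, Stard4, a sterol transfer protein (-0.55, limma FDR 0.00175). Npc2, a lysosomal cholesterol carrier, had one of the 3 strongest promoter peaks among uncalled genes (274 and 294 in hypoxia against 177 and 224 in normoxia, log2 fold change -0.03, limma FDR 0.870). After cyclic loess Npc2 was the 1 peak called higher (limma FDR 0.00833).

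Of the 19 promoter peaks for fatty acid synthesis and desaturation 3 were called lower and 0 higher. All 19 had a negative log2 fold change (median -0.39), as did 13833 of all 17661 promoter peaks. With equal totals over peaks 15 of the 19 were negative, and after cyclic loess 17 were. Elovl6, an elongase of long-chain fatty acids, had 345 and 379 in hypoxia against 139 and 172 in normoxia (log2 fold change -0.74, SE 0.10, limma FDR 1.99e-05), the lowest p-value of all 77. Fads2, a desaturase of polyunsaturated fatty acids, had 204 and 183 in hypoxia against 74.2 and 104 in normoxia (-0.65, limma FDR 0.000960), and Acly, which makes cytosolic acetyl-CoA from citrate, had 311 and 300 in hypoxia against 144 and 169 in normoxia (-0.49, limma FDR 0.00232). Acss2, which makes acetyl-CoA from acetate, had a strong promoter peak that was not called (310 and 314 in hypoxia, 185 and 177 in normoxia, log2 fold change -0.31, limma FDR 0.0442). Of the 5 promoter peaks of liver X receptors and sterol efflux genes, which respond to surplus sterol, 0 were called by limma, with 1 lower at an unadjusted p under 0.05 and a median of -0.13 (0.16 with equal totals over peaks). Whether the lists differ from each other was not tested.

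**Figure D5:**
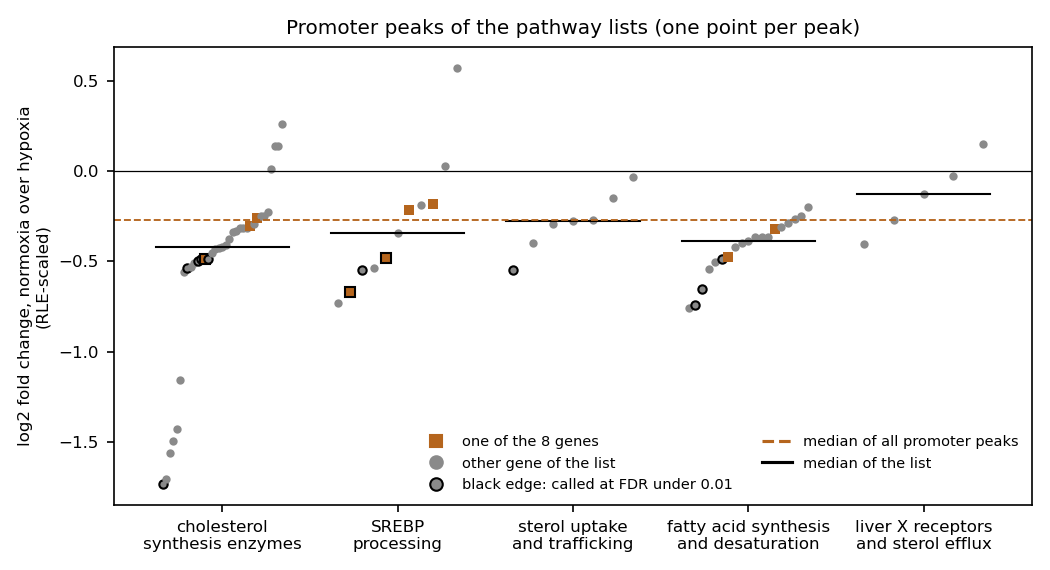
Log2 fold change (y axis, normoxia over hypoxia, RLE-scaled) of each promoter peak of the 5 gene lists (x axis), with the 8 genes as brown squares, other genes as grey circles, a black edge on the 13 called peaks, the list median as a black line and the median of all promoter peaks dashed (-0.27). Of the 77 peaks 70 lie below 0 (53 with equal totals over peaks and 59 after cyclic loess). After RLE scaling 13833 of all 17661 promoter peaks do. The 6 lowest points of the cholesterol list are narrow peaks with low signal beside a larger promoter peak.

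The genes of the lists whose promoter profile over the 4 libraries was most like the median of the 8 genes were Mvd and Mvk, which encode enzymes of the mevalonate pathway, and Acaca, which encodes an acetyl-CoA carboxylase. The likeness was the Euclidean distance between centred log2 values after RLE scaling, which was 0.038 for Mvd, 0.071 for Mvk and 0.095 for Acaca. The median profile of the 8 genes was 0.23 and 0.15 above its own mean in the hypoxia libraries against -0.21 and -0.15 in the normoxia libraries. Over 4 libraries in 2 conditions such a likeness is a description of the same difference between hypoxia and normoxia and adds no further evidence.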

How the data were processed

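ATAC-seq was measured in 4 libraries, 2 from hypoxia-cultured and 2 from normoxia-cultured mouse MSCs. According to the methods and labels, reads were aligned to mm10 with Bowtie2 (local mode), duplicates were removed with Picard, and chromstaR called 1 peak set over both conditions in differential mode. The authors deposited a value per peak and library that they call RPKM. It is a signal: within a library, 100% of the peaks had a whole multiple (tolerance 0.01) of a single step, 10000000 divided by the library total, and were not divided by peak width, so whole reads were recovered from the signal that was deposited. The recovered reads per median peak were 43 and 48 for the hypoxia libraries, against 33 and 40 for normoxia. A read may be counted in more than 1 bin, so no counting interval is given, and weak peaks rest on few reads.

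Groups came from the labelled oxygen level. Values were divided by RLE size factors (1.13 and 1.23 for hypoxia, 0.810 and 0.886 for normoxia) and tested as log2(value + 1) with limma 3.58.1 (lmFit, eBayes with trend and robust) in R 4.3.3, in a two-sided test. The FDR was the Benjamini-Hochberg value over the whole table of 128055 peaks, and peaks under 0.01 were called. The study used edgeR with RLE factors, and edgeR 4.0.16 on recovered reads was an alternative, since the table holds scaled values. A negative fold change means less signal in normoxia. Because 1 is added before the log2, changes of low peaks are understated. The procedure was tested on simulated data. Peaks were assigned with GENCODE M21, and all 128055 lay within the chromosomes of GRCm38.p6. According to the paper, sorted cells were divided between hypoxia and normoxia, but the labels do not say which libraries share an isolation. Libraries with the same number did not deviate together (correlation 0.011 over all peaks), so the numbers were not treated as pairs. With the trend and robust options, limma combines the spread between the 2 libraries of a condition with that of other peaks of like signal. The p-values rest on both, and without these options 0 peaks of the table were called.

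The 8 genes and the gene lists were chosen with earlier results of these data known. Every promoter peak of the 8 genes is named, other peaks singly where called or strongest of a gene (or, after their values were seen, where past an FDR under 0.05), and list genes where called or among the 3 uncalled genes with the strongest promoter peak. The 3 list genes whose promoter profile was most like that of the 8 genes are named too. Fdps (its main peak) and Scap were named beyond this rule, after their values were seen. Some genes of the lists are not reported here by name. The motif letters were chosen after the sequences were read. Alternatives were other scalings, pseudocounts (0.1 and 5), an FDR under 0.05, a mean value of at least 5, other variance models and tests, the replicate block, leaving out each library, and other promoter windows and flanks.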

Additional observations from a re-analysis of the deposited data

How the results depend on the processing

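Of the 9 promoter peaks of the 8 genes, 3 were called lower in normoxia. This became 9 on the deposited scale, 1 with equal totals over peaks, and 0 after cyclic loess and with eBayes without trend and robust estimation. It ranged from 0 to 3 when single libraries were left out. Of the 31 other peaks, 0 were called in either direction. This became 6 lower on the deposited scale, 3 higher with equal totals over peaks, 1 lower and 1 higher at an FDR under 0.05, and 2 lower with 10 kb on either side of the genes. Of the 77 promoter peaks of the lists, 13 were called lower. This became 62 on the deposited scale, 2 with equal totals over peaks, 0 after cyclic loess (1 higher), 34 at an FDR under 0.05, 0 with eBayes without trend and robust estimation, and 0 to 26 when single libraries were left out. Of all promoter peaks, 60.6% were called lower on the deposited scale, 2.29% with equal totals, 2.05% after cyclic loess and 30.1% at an FDR under 0.05. Over the whole table of 128055 peaks, 8757 were called higher with equal totals. At an FDR under 0.05, 12390 of these were called lower and 6890 higher. The cause of these shifts was not tested.

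The direction of a single promoter peak turned with equal totals over peaks for Fdft1 (log2 fold change 0.0302) and both Srebf1 peaks (0.104 at the second and 0.0744 at the 5′ peak), and after cyclic loess for Fdft1 (0.0494), Sqle (0.0259) and the 5′ peak of Srebf1 (0.0575). The equal totals include mitochondrial peaks, which held a larger share of the reads in hypoxia. The difference in the ratio of promoter to other signal ranged from -0.50 to -0.28 when single libraries were left out, an alternative chosen after seeing the data.

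With the replicate block, 4 of the 9 promoter peaks of the 8 genes and 21 of the 77 of the lists were called lower (22.2% of all promoter peaks), and with the block and the GC trend removed 3 of the 9 and 18 of the 77 were (20.4% of all promoter peaks), with 1 of the 31 other peaks called higher. The numbers gave no sign of pairing. Where 1 hypoxia library was left out, the lone library was assumed to vary like the other group.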
